A study of Mus musculus with 18 samples.

Results

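The promoters of 5196 long intergenic noncoding RNA (lincRNA) genes were examined for 2 histone marks in 2 mouse blood cell types. The genes were taken from GENCODE vM21 on the mouse build mm10 (GRCm38). A gene was a member when its gene type was lincRNA and its 5' end lay over 5 kb from the transcription start site (TSS) of every protein-coding transcript, which held for 5196 of 5854 lincRNA genes (88.8%). The promoter region was the 5' end with 1 kb on each side. The median distance from a member's 5' end to the nearest protein-coding TSS was 84.4 kb. The 5' ends of 196 members lay inside the body of a protein-coding gene, so the rule sets a distance from start sites and not from gene bodies, and the regions of 238 members overlapped the region of another member.

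The series has 18 bone marrow samples of adult C57BL6 mice, male by the study's methods, of which 8 are chromatin immunoprecipitation (ChIP-seq) libraries with a peak list each and 10 are inputs, not analysed here. For each mark, an acetylation (H3K27ac) and a trimethylation (H3K4me3) of histone H3, there were 2 libraries from erythroblasts (ERY) and another 2 from cells labelled immature megakaryocytes (iMK). The ERY gate took low forward scatter cells that carry Ter119 and CD44, and the iMK gate cells that carry CD41 and CD61 and lack Ter119, Sca1 and cKit. Both sorts were also negative for CD4, CD8, IL7Ra, CD11b, Ly6g and CD45R. No genotype or treatment is given beyond the strain. Replicates are numbered here by submission order, which pairs none of them. The study describes its replicates as biological, but they may be separate aliquots of the same sort, so each p-value speaks for the spread among these libraries only.

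LincRNAs are transcribed by RNA polymerase II and are usually capped, spliced and polyadenylated, but they hold no long open reading frame. Many are made in few cell types, and some start at enhancers of neighbouring genes. H3K27ac marks active promoters and enhancers, whereas H3K4me3 concentrates at promoters, above all at those rich in CpG dinucleotides. In red cell precursors GATA1, a transcription factor that binds the letters GATA, occupies promoters and enhancers of many erythroid genes.

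The labels were first checked against marker genes, with a gene counted when a peak touched its 5' end region. The 5 erythroblast markers reported here (Klf1, Gata1, Slc4a1, Alas2 and Hba-a1) had an H3K27ac peak in both ERY libraries, against 1 of 5 in each of the libraries labelled iMK. Of 5 megakaryocyte markers, the libraries labelled iMK had an H3K27ac peak at Itgb3 (CD61) alone, whereas Itga2b (CD41), Gp9 and Gp1ba had one in both ERY libraries only and Pf4 in no library. The ERY libraries thus held H3K27ac peaks at 3 of the 5 megakaryocyte markers. For H3K4me3 it was 0 of 5 in both ERY libraries, against 1 in each labelled iMK. At the erythroblast markers H3K4me3 peaks touched 4 and 2 of 5 in ERY, against 1 in each labelled iMK. Of 6 myeloid markers, 4 and 5 had an H3K27ac peak in the libraries labelled iMK, against 0 in both ERY libraries. An H3K4me3 peak was found at 2 and 4 of these 6, against 0 in both ERY libraries. Of 3 stem and progenitor markers, Cd34 had an H3K27ac peak in the first library labelled iMK and Kit, whose product the iMK gate leaves out, in the second, against 0 in both ERY libraries. Kit also had 75.8% and Cd34 69.97% H3K4me3 coverage in the second H3K4me3 library labelled iMK. A peak at the 3 lymphoid markers was not listed in any library. The H3K27ac libraries of both labels therefore went against part of their label, and so did the H3K4me3 libraries labelled iMK. The part of other cells in the differences below was not tested. The ERY lists held 25750 and 21768 H3K27ac peaks and 8841 and 6275 H3K4me3 peaks, and those labelled iMK held 22931 and 24781 H3K27ac peaks and 7578 and 13222 H3K4me3 peaks. The second H3K4me3 list labelled iMK stood apart in length.

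The promoters of 6 members are printed first, since they share a run of letters described further on. They are 6 of the 7 members that had an H3K4me3 call in the 2 ERY libraries and in none of those labelled iMK. Each sequence runs 5' to 3' along the transcript from 250 bases before the 5' end to 50 bases from it on (the 5' end included), on GRCm38, and capitals mark every AGATAA or TGATAA on either strand (TTATCT or TTATCA where the match is on the opposite strand). 5430401H09Rik is at chr12:32123653-32123952 on the minus strand, Gm31452 at chr13:107063443-107063742 on the plus strand and F930017D23Rik at chr10:43593147-43593446 on the plus strand. Gm49024 is at chr14:34661457-34661756, Gm33280 at chr1:36131792-36132091 and AC113961.1 at chr19:29067097-29067396, all on the plus strand.
5430401H09Rik: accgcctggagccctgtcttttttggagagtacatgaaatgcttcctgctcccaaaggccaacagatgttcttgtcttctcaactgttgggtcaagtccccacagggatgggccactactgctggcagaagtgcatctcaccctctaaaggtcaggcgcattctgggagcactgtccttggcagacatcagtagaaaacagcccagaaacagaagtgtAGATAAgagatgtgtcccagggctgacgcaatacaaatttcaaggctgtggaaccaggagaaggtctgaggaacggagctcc
Gm31452: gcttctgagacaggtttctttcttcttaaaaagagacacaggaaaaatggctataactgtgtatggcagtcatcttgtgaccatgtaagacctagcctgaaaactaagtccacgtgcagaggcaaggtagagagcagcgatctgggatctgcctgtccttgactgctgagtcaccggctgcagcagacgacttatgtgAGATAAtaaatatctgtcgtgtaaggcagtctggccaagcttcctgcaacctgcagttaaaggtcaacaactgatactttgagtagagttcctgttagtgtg
F930017D23Rik: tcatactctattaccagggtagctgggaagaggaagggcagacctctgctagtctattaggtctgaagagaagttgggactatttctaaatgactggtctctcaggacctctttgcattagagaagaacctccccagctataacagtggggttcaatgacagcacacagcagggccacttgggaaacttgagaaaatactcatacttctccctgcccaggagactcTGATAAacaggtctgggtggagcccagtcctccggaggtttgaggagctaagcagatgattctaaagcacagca
Gm49024: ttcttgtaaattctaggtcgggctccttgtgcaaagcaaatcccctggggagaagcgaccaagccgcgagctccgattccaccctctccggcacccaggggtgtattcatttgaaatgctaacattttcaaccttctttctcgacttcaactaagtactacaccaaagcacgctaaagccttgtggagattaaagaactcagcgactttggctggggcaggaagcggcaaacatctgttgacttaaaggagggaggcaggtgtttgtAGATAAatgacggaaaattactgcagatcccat
Gm33280: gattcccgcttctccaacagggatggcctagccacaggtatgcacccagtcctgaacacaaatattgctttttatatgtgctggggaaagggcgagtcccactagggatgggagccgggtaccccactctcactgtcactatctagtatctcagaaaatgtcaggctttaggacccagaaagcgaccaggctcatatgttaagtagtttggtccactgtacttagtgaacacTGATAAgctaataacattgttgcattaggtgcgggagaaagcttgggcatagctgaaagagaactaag
AC113961.1: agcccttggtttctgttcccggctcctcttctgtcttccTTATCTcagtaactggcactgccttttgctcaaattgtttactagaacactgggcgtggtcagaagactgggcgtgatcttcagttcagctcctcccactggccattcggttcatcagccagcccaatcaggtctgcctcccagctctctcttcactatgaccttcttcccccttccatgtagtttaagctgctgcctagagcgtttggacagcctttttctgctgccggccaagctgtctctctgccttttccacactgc

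A second set shows promoters of other members with both marks, with every CpG dinucleotide in capitals. Lockd (chr6:134928842-134929141, plus strand) and Malat1 (chr19:5802623-5802922, minus strand) were called for both marks in all libraries. Gm20109 (chr17:28523099-28523398, minus strand) and Dubr (chr16:50732724-50733023, minus strand) were called for both marks in the libraries labelled iMK only. The 300 bases held 13 CpG in Lockd, 10 in Malat1, 37 in Gm20109 and 19 in Dubr. The first set held between 1 (F930017D23Rik) and 11 (Gm49024), a range that takes in Malat1.
Lockd: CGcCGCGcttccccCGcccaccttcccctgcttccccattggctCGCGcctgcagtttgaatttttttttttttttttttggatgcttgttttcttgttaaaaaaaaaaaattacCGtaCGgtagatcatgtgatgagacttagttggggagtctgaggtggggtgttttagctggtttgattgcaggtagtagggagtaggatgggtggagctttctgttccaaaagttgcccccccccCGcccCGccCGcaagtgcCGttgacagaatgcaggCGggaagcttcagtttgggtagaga
Malat1: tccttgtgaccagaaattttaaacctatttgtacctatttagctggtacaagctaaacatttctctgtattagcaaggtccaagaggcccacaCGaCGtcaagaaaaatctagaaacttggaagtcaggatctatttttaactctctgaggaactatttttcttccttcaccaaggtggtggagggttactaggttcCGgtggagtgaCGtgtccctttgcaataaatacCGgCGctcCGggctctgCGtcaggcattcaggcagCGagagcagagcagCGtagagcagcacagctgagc
Gm20109: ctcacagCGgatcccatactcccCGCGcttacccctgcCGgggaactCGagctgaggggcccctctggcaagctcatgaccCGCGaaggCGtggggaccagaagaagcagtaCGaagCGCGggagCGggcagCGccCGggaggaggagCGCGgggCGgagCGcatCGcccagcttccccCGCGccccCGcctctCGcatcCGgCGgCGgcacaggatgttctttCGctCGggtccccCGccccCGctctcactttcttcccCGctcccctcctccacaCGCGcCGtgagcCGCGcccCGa
Dubr: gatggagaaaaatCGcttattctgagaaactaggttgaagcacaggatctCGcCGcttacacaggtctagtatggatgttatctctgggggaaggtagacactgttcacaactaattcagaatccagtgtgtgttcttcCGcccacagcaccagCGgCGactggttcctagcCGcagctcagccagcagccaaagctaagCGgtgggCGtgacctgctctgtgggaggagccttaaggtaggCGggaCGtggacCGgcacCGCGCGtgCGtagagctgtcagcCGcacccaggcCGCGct

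Few lincRNA promoters carried either mark. A peak of H3K27ac touched 304 and 254 of the 5196 members in the ERY libraries (5.85% and 4.89%), against 329 and 384 in the libraries labelled iMK (6.33% and 7.39%). For H3K4me3 the counts were 83 and 44 in ERY (1.60% and 0.847%), against 57 and 233 in the libraries labelled iMK (1.097% and 4.48%). Protein-coding promoters were called far more often, at 36.6% to 45.7% for H3K27ac and 26.98% to 49.7% for H3K4me3 over the 4 libraries of each mark, against 19.7% to 24.2% and 13.02% to 24.9% of all 55413 annotated 5' ends. The 658 lincRNA genes within 5 kb of a protein-coding TSS stood close to the protein-coding ones, at 34.2% to 43.2% and 21.4% to 47.9%. The share of members called for H3K27ac averaged 5.37% ± 0.68 in ERY and 6.86% ± 0.75 in those labelled iMK (SD, n = 2 each; exact permutation test, two-sided p = 0.3333, the smallest that 2 libraries against 2 allow). For H3K4me3 it averaged 1.22% ± 0.53 in ERY and 2.79% ± 2.39 in those labelled iMK (SD, n = 2 each; exact permutation p = 0.667). The H3K4me3 groups overlapped, and the second library labelled iMK alone lifted that mean.

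In all, 621 members had a peak of either mark in at least 1 library and 4575 had none. Regions under the authors' threshold are not listed, so a missing peak does not show that a mark was absent. H3K27ac was called at 587 members and H3K4me3 at 251, and 217 members had both. Of the 34 members with H3K4me3 and no H3K27ac, 32 had their H3K4me3 peak in the second library labelled iMK. A call in each of the 8 libraries was found at 26 members.

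The calls were centred on the annotated 5' ends. At the 5' end itself 4.68% and 3.77% of members lay under an H3K27ac peak in ERY, against 4.68% and 5.58% in the libraries labelled iMK. At 5 kb upstream the shares were 2.73% and 2.31% in ERY, against 1.48% and 1.98% in those labelled iMK. Both ERY libraries stood above both labelled iMK at 30 of the 40 upstream positions examined, which were 0.5 kb apart, but not at the others nor at the 5' end. H3K4me3 covered 1.29% and 0.654% of the 5' ends in ERY, against 0.828% and 3.70% in the libraries labelled iMK. At 5 kb upstream it covered 0.231% and 0.173% in ERY, against 0.192% and 0.847% in those labelled iMK.

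**Figure D1:**
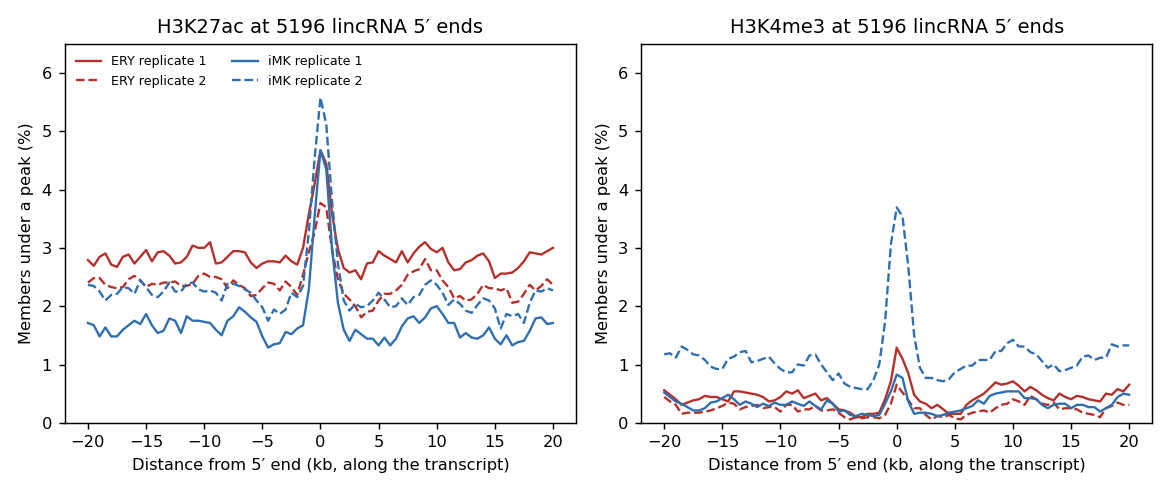
Percent of the 5196 lincRNA 5' ends under a peak (vertical axis) by distance from the 5' end in kb along the transcript (horizontal axis; negative values are upstream), for H3K27ac on the left and H3K4me3 on the right, with 1 line per library (iMK as labelled). Both marks peak at 0 kb in all libraries, with 3.77% to 5.58% of members under an H3K27ac peak there, and the second H3K4me3 library labelled iMK lies above the others at every distance drawn.

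Each member was then classed by mark. An ERY-only member had a peak in the 2 ERY libraries and none in those labelled iMK, and an iMK-only member the reverse. A shared member had a peak in each of the 4 libraries, and any other combination was called unreplicated. For H3K27ac, 112 members (2.16%) were ERY-only, against a background of 2.2% of all 55413 annotated gene 5' ends. A further 178 members (3.43%) were iMK-only, against 4.88% of all 5' ends, and 106 (2.04%) were shared, against 16.4%. Members were thus ERY-only about as often as any annotated gene, and shared far less often than the background.

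Among the 396 members with a replicated H3K27ac call, 28.3% were ERY-only, 44.9% iMK-only and 26.8% shared. Of 9541 protein-coding genes with a replicated call, 4.48% were ERY-only, 18.5% iMK-only and 77.1% shared. The 273 lincRNA genes near a protein-coding TSS lay between them, with 9.16% ERY-only, 23.1% iMK-only and 67.8% shared. These are shares over genes of the same 4 libraries and carry no test.

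For H3K4me3, 7 members (0.135%) were ERY-only, against 0.184% of all 5' ends, 15 (0.289%) were iMK-only, against 2.21%, and 27 (0.52%) were shared, against 11% of all 5' ends. Another 202 members were unreplicated, 150 of them called in the second library labelled iMK alone, of which 93 had an H3K27ac peak in both libraries labelled iMK. Among the 49 members with a replicated H3K4me3 call, 14.3% were ERY-only, 30.6% iMK-only and 55.1% shared, against 1.13%, 16.1% and 82.8% of 6111 protein-coding genes. Without the first iMK library the iMK-only count of H3K4me3 members was 165, and without the first ERY library 28. The ERY-only count was 15 without the second ERY library and 15 without the second library labelled iMK.

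**Figure D2:**
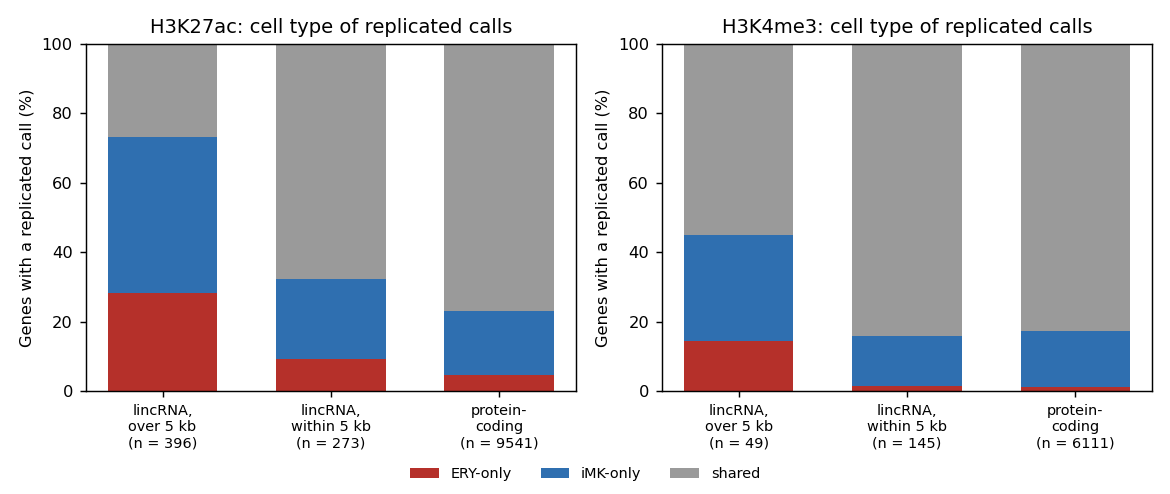
Share of genes with a replicated call (vertical axis, percent) that were ERY-only, iMK-only (as labelled) or shared, for lincRNA genes over 5 kb from a protein-coding TSS, lincRNA genes within 5 kb and protein-coding genes (horizontal axis, with the number of genes), H3K27ac left and H3K4me3 right. The shared part was 26.8% of the members for H3K27ac, against 77.1% of the protein-coding genes.

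Coverage, the percent of a 2-kb region under peaks, was compared between cell types with limma over all annotated 5' ends covered in at least 1 of the 4 libraries. Each difference is given as ERY minus iMK, in percentage points, with limma's standard error (SE) and Benjamini-Hochberg adjusted p. For H3K27ac, 587 members were among 15656 regions tested. Of these, 91 (15.5%) were higher in ERY, against 10.7% of all regions tested, and 122 (20.8%) were higher in the libraries labelled iMK, against 14.9%. A member entered this test only with a peak in some library, so these shares are not shares of all members. Of all 5196 members 91 and 122 passed, against 1676 and 2338 of 55413 annotated 5' ends, so the share of members was lower. The count higher in ERY was 172 without the second ERY library. The count higher in iMK was 64 without the first ERY library, 64 without the second, 255 without the first library labelled iMK and 212 without the second. In 14.8% of the members tested the replicates of both cell types had identical coverage, and limma's SE there comes from the spread of other regions.

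For H3K4me3, 251 members were among 14097 regions tested. By limma 0 members were higher in ERY, against 0% of all regions, and 0 were higher in iMK, against 0%, at an adjusted p under 0.05. At an unadjusted p under 0.05, 3 of 251 members were higher in ERY and 9 in iMK, against 61 and 745 of 14097 regions. Without the second library labelled iMK, 5 members were higher in ERY and 16 in iMK, and without the first, 0 and 166. With 7578 and 13222 peaks in the lists labelled iMK, a missed threshold here does not show equal coverage, and the fit made no H3K4me3 call on simulated differences either.

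The leading ERY-only H3K27ac members were chosen by coverage over a wide window, which favours long peaks. The 10 members with the largest difference over 5 kb on each side were Gm12107, Gm40038, Gm32281, 5330416C01Rik, A730036I17Rik, Gm43409, Gm47662, Bloodlinc, Gm26619 and Gm26651. All 10 passed limma's test, but they were picked for this difference in the same libraries, so passing adds no support. For 8 of them the 2-kb region was 100% covered in both ERY libraries and 0% in both labelled iMK, a difference of 100 points (SE 0.45, n = 2 each, limma adjusted p = 3.99e-05). Gm26619 had 84.4% and 100% in ERY, against 0% in both libraries labelled iMK (difference 92.2, SE 7.01, limma adjusted p = 0.0136). Gm26619 starts 3701 bases from 5330416C01Rik on the opposite strand and shares its domain, so these 2 members are 1 locus. Gm26619 and Gm26651 no longer passed without either library labelled iMK (limma adjusted p = 0.122 to 0.234), when 1 library stood for that cell type.

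Bloodlinc, an erythroid noncoding RNA known in mouse for promoting red cell maturation, starts at base 102377020 of chromosome 11, 11.7 kb from Slc4a1, the gene of the red cell anion exchanger band 3. Its H3K27ac peak spanned 27400 bases in the first ERY library and reached a protein-coding TSS region, whereas in the second it spanned 6600 bases and did not. The authors' folds of these peaks were 11.5 and 11.6. H3K4me3 covered 69.0% and 0% of its region in ERY, against 0% in both libraries labelled iMK, so only H3K27ac was replicated there. The longest peaks at any member were at Gm47662, beside the protease inhibitor gene Serpinb9, with 34800 and 37000 bases in ERY. They reached a protein-coding TSS region in both ERY libraries, as did those at Gm32281. At A730036I17Rik the peak of the second ERY library did so. Gm13881 starts 46.0 kb from Lmo2, a GATA1 partner, and was covered at 100% and 80.0% in ERY, against 0% in both libraries labelled iMK (difference 90.01, SE 8.98, limma adjusted p = 0.0224; 0.163 and 0.234 with 1 library labelled iMK left out). Gm13881 and Bloodlinc were the 2 ERY-only members whose nearest protein-coding gene stood on a list of 66 erythroid genes. Genes of that list were nearest to 11 members in all.

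Peaks at ERY-only members were longer than those at iMK-only members. The median width of the H3K27ac peak was 4300 and 2800 bases at the 112 ERY-only members in the ERY libraries. At the 178 iMK-only members it was 1800 and 2000 bases in the libraries labelled iMK. A width of 10 kb or more was reached by 23 and 15 peaks at the ERY-only members, against 0 and 2 at the iMK-only members. The median over a whole list was 2000 bases in both ERY libraries, against 1600 and 1800 in those labelled iMK, so the lists themselves differed in the same order. ERY-only protein-coding genes had like widths in ERY, with medians of 4200 and 3800 bases.

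The 10 leading iMK-only H3K27ac members were AU019990, Gm14010, Platr7, Gm45805, Gm36161, A630001O12Rik, Gm46189, Gm30198, Gm7644 and Gm39321, and 6 of them passed limma's test. They were picked in the same way, so passing adds no support here either. AU019990, at base 132598195 of chromosome 2, had 0% coverage in both ERY libraries, against 100% in both libraries labelled iMK (difference -100, SE 0.45, n = 2 each, limma adjusted p = 3.99e-05). Gm46189 and Gm39321 had the same values. Gm46189 starts 24.7 kb from Lilr4b, a leukocyte immunoglobulin-like receptor gene, and Gm39321 17.7 kb from Sorl1, a sorting receptor gene. Gm45805 had 0% in both ERY libraries, against 93.3% and 100% in those labelled iMK (difference -96.7, SE 3.03, limma adjusted p = 0.00227). Gm36161 and A630001O12Rik passed with all 4 libraries but not without either ERY library (limma adjusted p = 0.0711 to 0.138).

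Platr7 and Gm14010 did not pass, and their replicates differed. Platr7 had 0% in both ERY libraries, against 50.02% and 100% in those labelled iMK (difference -75.0, SE 22.4, limma adjusted p = 0.158). Gm14010 had 0% in both ERY libraries, against 47.3% and 92.7% (difference -70.0, SE 20.4, limma adjusted p = 0.154). Gm7644, 9.95 kb from Prkcd, a protein kinase C gene, and Gm30198, 7.51 kb from Lgmn, a lysosomal protease gene, did not pass either. By the class rule the 2 cell types could not overlap in any of these.

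2 iMK-only members had a nearest gene on a list of 55 megakaryocyte and platelet genes. Genes of that list were nearest to 22 members in all, of which 20 had no H3K27ac call. 2310067P03Rik, whose 5' end is 438.6 kb from Mef2c, a transcription factor gene, had 0% H3K27ac coverage in both ERY libraries, against 60.0% and 72.8% in those labelled iMK (difference -66.4, SE 5.78, limma adjusted p = 0.0176). Gm13431, 13.7 kb from Ptgs1, the gene of cyclooxygenase-1, had 0% in both ERY libraries, against 49.98% and 68.8% (difference -59.4, SE 8.46, limma adjusted p = 0.0435). Neither passed without an ERY library (limma adjusted p = 0.131 to 0.217), and Gm13431 did not with lists of equal length (limma adjusted p = 0.489). No cell-type-only member had a nearest gene on the list of 51 myeloid genes, which were the nearest genes of 15 members.

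The 7 ERY-only H3K4me3 members were 5430401H09Rik, Gm31452, F930017D23Rik, Gm49024, Gm33280, Redrum and AC113961.1. All were also 100% covered by H3K27ac in both ERY libraries. Gm49024 had the highest H3K4me3 coverage, with 100% and 85.3% in ERY, against 0% in both libraries labelled iMK (difference 92.7, SE 24.5, n = 2 each, limma adjusted p = 0.717). Redrum, a noncoding RNA known in mouse for a part in late red cell maturation, lies on chromosome 18 at base 54422295, 490.1 kb from the nearest protein-coding TSS. It had 54.7% and 14.7% H3K4me3 coverage in ERY, against 0% in both libraries labelled iMK, and its H3K27ac coverage was 100% in both ERY libraries, against 0% in both labelled iMK. Gm31452, Gm49024 and Redrum were ERY-only for both marks.

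The other 4 members of that class were shared for H3K27ac, with the iMK coverage lower than the ERY coverage. F930017D23Rik starts 13.5 kb from Cd24a, a surface glycoprotein gene, and had 100% H3K27ac coverage in both ERY libraries, against 59.8% and 99.8% in those labelled iMK. AC113961.1, 19.4 kb from Ak3, a mitochondrial adenylate kinase gene, had 100% in both ERY libraries, against 62.7% and 60.0% (difference 38.7, SE 1.45, limma adjusted p = 0.00335). 5430401H09Rik, 62.4 kb from Prkar2b, the gene of a protein kinase A regulatory subunit, had 100% in both, against 40.0% and 60.0% (difference 50.02, SE 9.04, limma adjusted p = 0.0665). For AC113961.1 alone among the 4 did the difference pass the test, though not after quantile normalization (limma adjusted p = 0.0517).

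Of the 15 iMK-only H3K4me3 members, 9 were also iMK-only for H3K27ac. Gm20109 and E230001N04Rik start 428 bases apart on opposite strands, 5.62 and 5.20 kb from Fkbp5, the gene of a glucocorticoid receptor co-chaperone, and share most of 1 region. Gm20109 had 0% H3K4me3 coverage in both ERY libraries, against 60.0% and 100% in those labelled iMK (difference -80.0, SE 27.3, limma adjusted p = 0.717). For H3K27ac it had 0% in both ERY libraries, against 97.3% and 100% (difference -98.7, SE 1.27, limma adjusted p = 0.000346, and 0.0548 with coverage over 5 kb on each side). Dubr, known from mouse muscle cells, where it acts on its neighbour Dppa2, had 0% coverage of both marks in ERY. In the libraries labelled iMK it had 60.0% and 89.96% for H3K27ac and 60.0% and 91.4% for H3K4me3. Its H3K27ac difference was -75.0 points (SE 13.5, limma adjusted p = 0.0663).

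**Figure D3:**
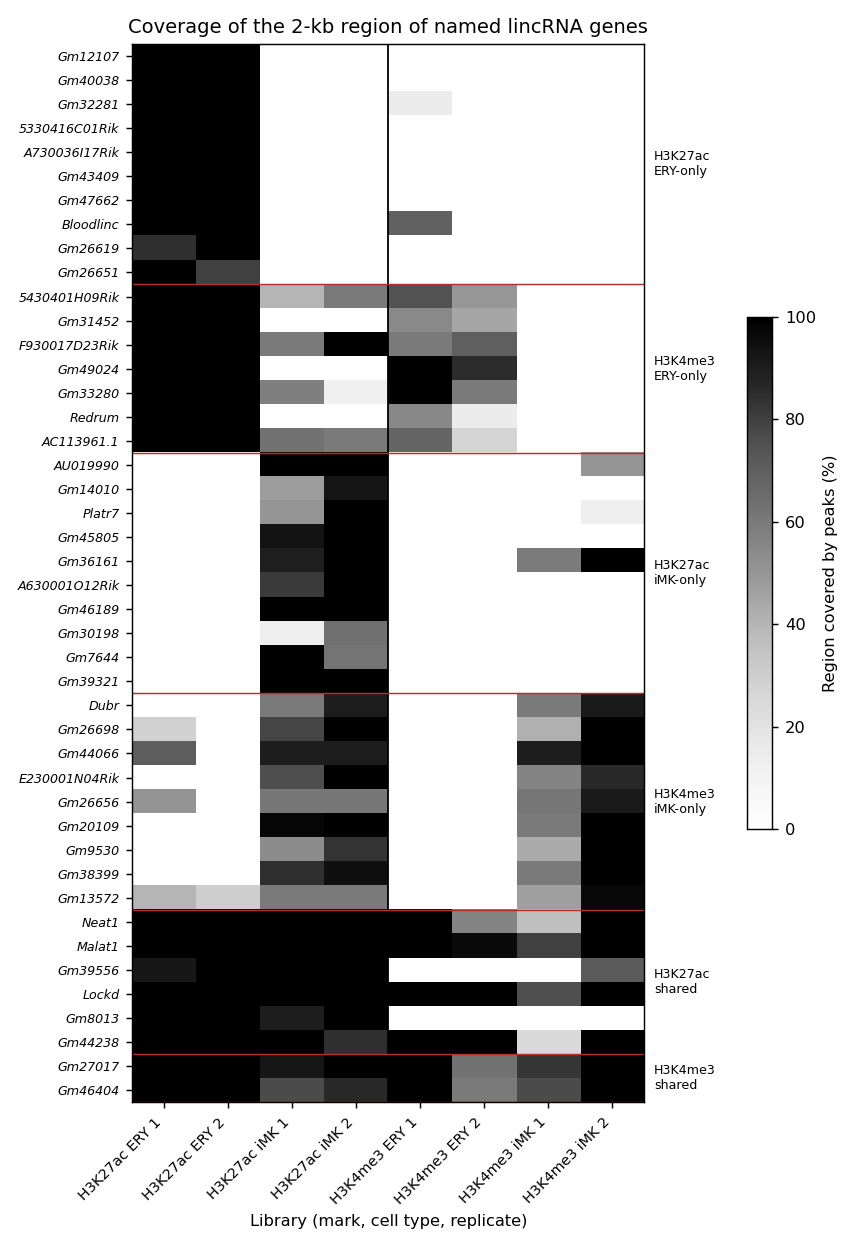
Percent of the 2-kb region covered by peaks (grey scale, white 0% to black 100%) for the named lincRNA genes (rows, grouped by the mark and class that named them, each gene drawn once) in the 8 libraries (columns; mark, cell type as labelled, replicate). The ERY-only H3K27ac members are at or near 100% in both ERY columns and at 0% in both iMK columns, and H3K4me3 is at 0% for most of them.

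The shared members included Malat1, Neat1 and Lockd. Malat1, an abundant RNA of nuclear speckles, had 100% H3K27ac coverage in all 4 libraries and H3K4me3 coverage of 100% and 96.4% in ERY, against 80.0% and 100% in those labelled iMK. Neat1, the scaffold RNA of paraspeckles, also had 100% for H3K27ac in all 4, and 100% and 56.1% for H3K4me3 in ERY, against 36.1% and 100%. Neat1 stood under peaks of 10200 to 11600 bases for H3K27ac, with authors' folds of 11.5 and 9.21 in ERY, against 23.1 and 22.3 in those labelled iMK. Lockd, which starts 8.58 kb downstream of the TSS of the cell cycle inhibitor gene Cdkn1b and whose promoter is known to act as an enhancer of it in mouse erythroblasts, had 100% H3K27ac coverage in all 4. Its H3K4me3 coverage was 100% in both ERY libraries, against 75.4% and 100%. Gm44238 starts on the opposite strand 1020 bases from Lockd and was shared for both marks as well. Gm39556, Gm8013, Gm27017 and Gm46404 completed the leading shared members, and of these Gm8013 had no H3K4me3 peak at all.

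A list of 89 known lncRNAs held 28 members, of which 15 had a call and 13 had none. For H3K27ac, 10 were shared and 3 were iMK-only (Mirt1, Trp53cor1 and Ftx), and none was ERY-only. Bloodlinc and Redrum, both ERY-only for this mark, were not among the 28. Besides Malat1, Neat1 and Lockd, the shared ones were the small nucleolar RNA hosts Snhg6, Snhg12 and Snhg20, 2900097C17Rik (Norad, which binds Pumilio proteins), Pvt1 beside Myc, Jpx of the X inactivation centre and Epb41l4aos. Epb41l4aos had 74.6% in both ERY libraries, against 49.98% in both labelled iMK (difference 24.6, SE 0.88, limma adjusted p = 0.003). The authors' folds of these peaks ran the other way, at 2.445 and 2.35 in ERY, against 6.86 and 9.55 in those labelled iMK. Median folds over the whole lists had that order too, at 3.06 and 2.77, against 5.79 and 5.65. Mirt1 had 0% in both ERY libraries, against 100% in both labelled iMK (difference -100, SE 0.45, limma adjusted p = 3.99e-05). Trp53cor1 (lincRNA-p21), a p53 target beside Cdkn1a, had 0% in both, against 70.0% and 40.0% (difference -55.0, SE 13.5, limma adjusted p = 0.113). Ftx had 0% in both, against 40.0% and 50.5% (difference -45.3, SE 4.76, limma adjusted p = 0.0244). Ftx did not pass without an ERY library (limma adjusted p = 0.157 and 0.158) or over 5 kb on each side (limma adjusted p = 0.62), nor did Epb41l4aos after quantile normalization (limma adjusted p = 0.0848). Lncpint and Mir155hg had unreplicated calls only, and Xist, H19, Meg3, Mirg, Hotair, Halr1, Miat, Mir17hg, Rmst, Bvht, Carlr, Platr4 and Lncenc1 had none.

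H3K27ac without H3K4me3 was more frequent at lincRNA than at protein-coding promoters, and its share depended on the H3K4me3 library. Of the 237 members with H3K27ac in both ERY libraries, 157 (66.2%) had no H3K4me3 peak in either ERY library, against 536 of 7897 protein-coding genes (6.79%) and 14.5% of all annotated 5' ends with H3K27ac in both. Of the 300 members with H3K27ac in both libraries labelled iMK, 129 (43.0%) had none there, against 191 of 9592 protein-coding genes (1.99%) and 6.155% of all annotated 5' ends. Without the second H3K4me3 library labelled iMK, which stood apart in length, these shares were 82.3% (247 members), 25.9% and 30.7%. Without the first ERY library of H3K4me3 they were 82.7% (196 members), 27.1% and 33.8% in ERY. Both marks in both libraries were found at 40 members in ERY and at 53 in those labelled iMK. The reverse state was rare. H3K4me3 in both libraries with no H3K27ac peak occurred at 0 members in ERY and 1 in those labelled iMK.

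The 2 marks went together chiefly at shared members. Of the 106 shared H3K27ac members, H3K4me3 touched 63.2% and 34.9% in ERY, against 35.8% and 79.2% in the libraries labelled iMK. Of the 112 ERY-only members it touched 8.93% and 3.57% in ERY. Of the 178 iMK-only members it touched 5.06% and 43.3% in the libraries labelled iMK, values too far apart to set beside those of ERY. For ERY-only protein-coding genes the shares in ERY were 46.8% and 30.4%. None of the members was ERY-only for one mark and iMK-only for the other.

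By construction the distance rule leaves little room for a peak to reach both a member and a protein-coding promoter. Of the members called for H3K27ac, 3.29% and 3.94% had a peak that also touched a region within 1 kb of a protein-coding TSS in ERY, against 0.304% and 0.521% in the libraries labelled iMK. The 5' end lay inside the peak for 77.2% to 79.9% of the called members in ERY and for 73.9% to 75.5% in those labelled iMK. Members called by the same peak as another member numbered 24 to 38 per H3K27ac library. The median authors' fold of the H3K27ac peaks was 3.58 and 2.97 at members, against 4.94 and 3.72 at protein-coding promoters, in the ERY libraries, and 5.79 and 5.66 at members, against 10.6 and 9.29 at protein-coding promoters, in the libraries labelled iMK. H3K4me3 peaks at members had median folds of 4.51 and 3.96 in ERY, below the medians over the whole lists of 5.45 and 4.42.

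Calls thinned out with distance from protein-coding genes. In the first ERY library 12.9% of the 294 members at 5 to 10 kb from a protein-coding TSS had an H3K27ac peak, against 0.754% of the 1326 members over 200 kb away. In the second ERY library the shares were 10.5% and 0.603%, and in the libraries labelled iMK 13.9% and 16.0% near, against 1.36% and 1.51% far. The shares for H3K4me3 in ERY were 4.76% and 2.72% near, against 0.302% and 0.151% far. Redrum was 1 of the far members with a replicated call.

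**Figure D4:**
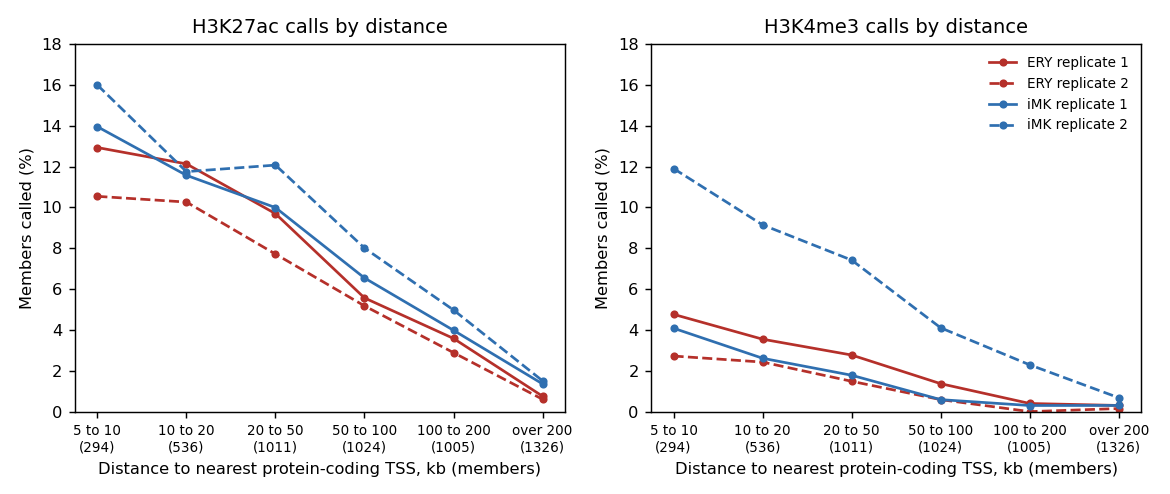
Percent of members with a peak in their 2-kb region (vertical axis) by distance to the nearest protein-coding TSS in kb (horizontal axis, with the number of members in each bin), for H3K27ac left and H3K4me3 right, 1 line per library (iMK as labelled). H3K27ac shares in the 4 libraries lie between 10.5% and 16.0% at 5 to 10 kb and between 0.603% and 1.51% over 200 kb.

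The class of the nearest protein-coding gene was counted for each class of member. Of the 112 ERY-only H3K27ac members, 11 (9.82%) had an ERY-only nearest gene, against 62 of all 5196 members (1.19%), and 9 had an iMK-only one. Of the 178 iMK-only members, 58 (32.6%) had an iMK-only nearest gene, against 646 of all members (12.4%), and 2 had an ERY-only one. A shared nearest gene was the most frequent case in both classes, at 68 of ERY-only members (60.7%) and 59 of iMK-only members (33.1%). Shared genes were the nearest of 64 of 106 shared members (60.4%) and of 25.6% of all members. Median distances to the nearest protein-coding TSS were 32.85 kb at ERY-only, 47.02 kb at iMK-only and 28.75 kb at shared members. At members with no H3K27ac call the median was 94.07 kb. All 7 ERY-only H3K4me3 members had a nearest gene that was shared for that mark, and 1 of the 15 iMK-only H3K4me3 members had an iMK-only one. Neighbouring members can have the same nearest gene, so these counts are of members and not of loci.

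The classes differed in CpG content, which is given as a description with no test. CpG observed over expected, the count of CpG in the 2-kb region over that foreseen from its C and G content, had a median of 0.199 over all members and 0.474 over protein-coding genes. It was 0.226 at ERY-only, 0.257 at iMK-only and 0.417 at shared H3K27ac members. A ratio of 0.6 or more was found at 28 of 106 shared members (26.4%), against 1 of 112 ERY-only and 8 of 178 iMK-only members, and 79 of all 5196 (1.52%). By H3K4me3 class the medians were 0.211 at the 7 ERY-only members, 0.614 at the 15 iMK-only and 0.701 at the 27 shared members. The median was 0.695 at protein-coding promoters shared for H3K4me3 and 0.194 at members without an H3K4me3 call. The quartiles of the 7 ERY-only members lay at 0.204 and 0.249.

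**Figure D5:**
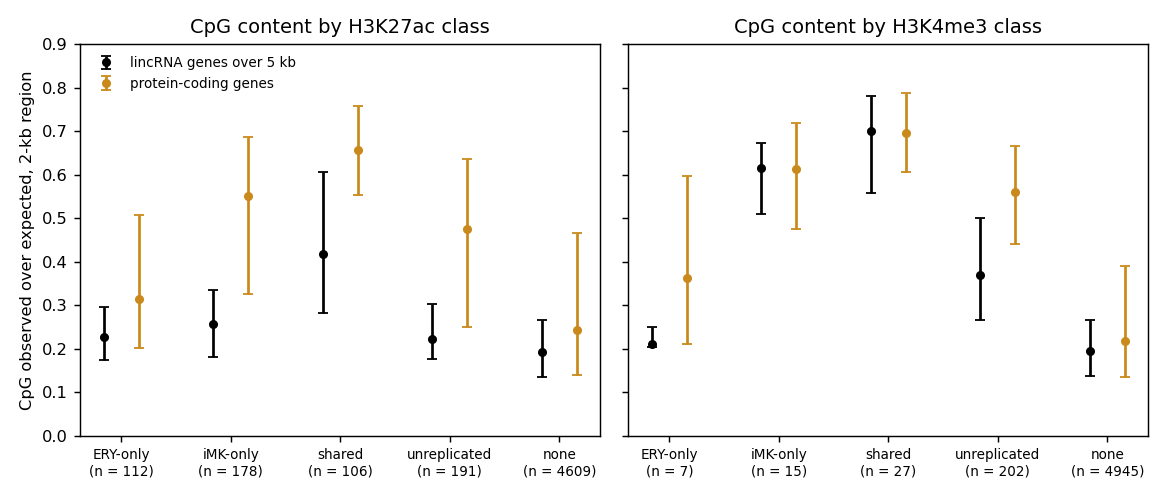
CpG observed over expected of the 2-kb region (vertical axis; points are medians, bars run between the quartiles) by class (horizontal axis, with the number of lincRNA members) for lincRNA genes over 5 kb from a protein-coding TSS (black) and protein-coding genes (orange), H3K27ac left and H3K4me3 right. Shared H3K4me3 members have a median of 0.701 and ERY-only ones 0.211.

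The letters AGATAA or TGATAA, which share GATAA, were searched on both strands of the 300 bases around the 5' end. All 7 ERY-only H3K4me3 members held a match, against 27.8% of all members and 23.1% of all annotated 5' ends. Over all annotated 5' ends of that class 39 of 102 (38.2%) held one, and over its protein-coding genes 22 of 69 (31.9%). In 5 of the 7 the match was on the strand of the transcript, starting at -32 in 5430401H09Rik, -52 in Gm31452, -24 in F930017D23Rik, -18 in Gm33280 and 17 in Gm49024, counted from 0 at the 5' end. In AC113961.1 (-211) and Redrum (-118) it was on the opposite strand. The shared H3K4me3 members held it in 2 of 27 and the iMK-only ones in 2 of 15. The share rested on how the class was drawn. Without the first ERY library 7 of 8 ERY-only H3K4me3 members held a match, and without the second 9 of 15. Without the first library labelled iMK it was 7 of 7, and without the second 7 of 15 (46.7%).

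The ERY-only H3K27ac class did not show this. A match was present in 26 of its 112 members (23.2%), close to all annotated 5' ends. Bloodlinc had none in its 300 bases. A match is a run of letters and not a measured binding site.

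Other motifs varied less or in few genes. The E-box letters CACGTG, a palindrome, were in 15 of 112 ERY-only (13.4%), 12 of 178 iMK-only (6.74%) and 12 of 106 shared (11.3%) H3K27ac promoters, against 5.22% of all members and 5.37% of all 5' ends. CCACACCC, bound by KLF factors such as KLF1, was in 8 ERY-only promoters (7.14%), against 3.48% of members and 3.14% of all 5' ends. CAGGAAG, an ETS motif, was in 20.5% of ERY-only, 21.9% of iMK-only and 21.7% of shared promoters. It was in 16.6% of members and 12.3% of all 5' ends. By H3K4me3 class it was in 4 of 7 ERY-only (57.1%), 1 of 15 iMK-only and 1 of 27 shared promoters. TATAAA was in 18.8% of ERY-only, 9.55% of iMK-only and 10.4% of shared promoters, against 16.2% of members and 17.1% of all 5' ends. All were searched on both strands of the same 300 bases, with no test.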

How the data were processed

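The 8 peak lists were deposited by the authors, 1 per library, with peaks called separately in each. Tools named in the notes that the submitters gave on processing are Bowtie 1.0.0 and SICER 1.1, with the build mm10 and no roles, whereas the study's ChIP-seq methods name another peak caller. All peak edges fall on multiples of 200 bp, as windowed calling gives, so 1 peak can join several elements. The authors deposited for each peak a fold, the ratio of ChIP over control, a p-value and a q-value, and every q-value was under 0.01. The lists hold no read depth, so no counting interval is given, and list length depends on depth and background. The study's methods, which name that other caller, kept reads that mapped to several places, which touches repeated sequence. Whether this holds for these lists is not stated.

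Members and lists were chosen with earlier results of these data known. Groups came from the labels. Regions were 2001 bp around the gene 5' end, and a call was an overlap of at least 1 bp. Coverage was tested with limma 3.58.1 (R 4.3.3; trend, no covariates, threshold 0.05 after Benjamini-Hochberg adjustment over all regions tested), which was tested on simulated data made from the ERY values: it returned the differences set there for both marks, but passed the threshold for some H3K27ac regions and for no H3K4me3 region. Members named in the text are the first 10 cell-type-only members per mark and direction by coverage difference over 5 kb on each side, the first 6 shared per mark, those on the list of known lncRNAs and cell-type-only members beside a listed lineage gene. Sequence was read from RefSeq's GRCm38 assembly. The first 15 bases of 5186 of 5196 member genes' transcripts matched it. Of the listed names, 73 of 89 lncRNAs, 66 of 66 erythroid, 54 of 55 megakaryocyte and 51 of 51 myeloid genes were found. Tables and tests of single values were made with Python 3.11.15 and scipy 1.17.1. A marker gene was left out of each of the erythroblast and megakaryocyte marker lists and is not reported here.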

Additional observations from a re-analysis of the deposited data

How the results depend on the processing

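Of 126 recomputed counts, 106 stayed within 1.5 times the reported count. With at least 50% of the region required under a peak, the iMK-only and shared H3K27ac members numbered 105 and 62, and the ERY-only and shared H3K4me3 members 3 and 11. With all lists of a mark cut to the length of the shortest by fold, the iMK-only and shared H3K4me3 members numbered 8 and 14. With coverage taken over 5 kb on each side, limma called 152 H3K27ac members higher in ERY and 203 higher in iMK. With 1 replicate left out, where the lone library is assumed to vary like the others, H3K27ac members ranged over 115 to 160 (ERY-only), 180 to 242 (iMK-only), 108 to 122 (shared), 73 to 172 (limma, higher in ERY) and 64 to 255 (limma, higher in iMK). H3K4me3 members ranged over 7 to 15 (ERY-only), 15 to 165 (iMK-only), 27 to 40 (shared), 0 to 5 (limma, higher in ERY) and 0 to 166 (limma, higher in iMK). The cause was not tested. Counting every transcript of a protein-coding gene, or leaving out members inside gene bodies, both chosen after seeing the data, moved no count by over 1.5 times. No alternative turned the direction of a cell-type-only named member, and 25 of 474 recomputed values lost an adjusted p under 0.05 while 40 gained one. The class rule leaves a cell-type-only member no peak in the libraries of the other cell type. Leaving out libraries or peaks therefore could not turn its direction over the 2-kb region. limma without the filter on covered regions could not be fitted, since too many regions then had no spread. No paired analysis was possible because the labels number no replicates. With 2 libraries per group and no read depth, a weak mark or a small difference may go undetected.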

Other observations

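Within the same range of CpG content lincRNA promoters were called less often than protein-coding ones, and fewer of their replicated calls were shared. The ranges are wide, so CpG content was not matched within them. This comparison was added after the data were seen and carries no test. At a CpG ratio of 0.6 or more, H3K27ac was called in at least 1 library at 42 of 79 members (53.2%), against 5903 of 7440 protein-coding genes (79.3%), and the shared part of replicated calls was 75.7% and 85.6%. Between 0.2 and 0.4 it was called at 12.99% of members, against 26.8% of protein-coding genes, and the shared part was 22.9%, against 42.4%. Below 0.2 it was called at 6.83%, against 11.8%, and the shared part was 6.67%, against 17.2%. For H3K4me3 the called shares between 0.4 and 0.6 were 27.7% of members and 69.3% of protein-coding genes.

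Chromosome Y holds 548 of the 5196 members, and none had a replicated call of either mark. Chromosome 10 held 26 iMK-only and 10 ERY-only H3K27ac members among 354, and chromosome 13 held 21 and 12 among 386. No share over all annotated 5' ends was taken by chromosome, so these counts do not set members apart from other genes.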
